A study of Mus musculus with 6 samples.

Results

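The SOX and forkhead (FOX) families are sets of transcription factors, proteins that bind DNA and set which genes are read. They were followed here in mouse embryonic stem (ES) cells, pluripotent cells of the early embryo kept in culture, after 48 h with an siRNA against BRG1 or with a scrambled control siRNA. BRG1, the product of Smarca4, is an ATPase motor of SWI/SNF complexes, which slide and evict nucleosomes. The members are all genes whose name on the array is Sox or Fox followed by the usual family numbering, apart from Sox2, Sox3, Foxd3 and Foxh1, which were left aside. This rule uses names alone and no measured value. It takes 54 of the 27962 gene names on the array, 18 SOX genes with 40 probes and 36 FOX genes with 52 probes.

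Both groups were cultures of F1 ES cells from 129 and C57BL/6, and each was read on 3 single-colour Agilent arrays from 500 ng of total RNA. The labels name no clone, line or siRNA sequence, nor whether replicates were grown apart. The p-values therefore rest on array-to-array spread, part of which may be technical. The share of spots well above background ran from 60.9% to 70.9% on the BRG1 siRNA arrays and from 64.8% to 75.3% on the control siRNA arrays. BRG1 replicate 1 and the 3 control arrays were on slide 1, and BRG1 replicates 2 and 3 were on slide 2. Slide 2 thus held no control array. A fit with a slide term therefore takes its change from BRG1 replicate 1 against the controls, as slide 1 alone does, and is no separate check. Smarca4 itself had a relative signal of 1359, 1336 and 1211 on the BRG1 siRNA arrays, against 2004, 2053 and 1877 on the control siRNA arrays. That is a 1.52-fold lower signal (log2 change -0.60 ± 0.06 SE, limma adjusted p = 0.00365), and all 3 Smarca4 probes fell. Relative signal means a spot's intensity on a scale where the 75th percentile of its array is 100, and log2 changes are BRG1 siRNA minus control siRNA throughout. Of the ES cell markers, 8 of 9 were tested. Pou5f1 read 2249 to 2562 on the BRG1 siRNA arrays and 2889 to 3135 on the control siRNA arrays. It was the only 1 of the 8 with a negative change. The other 7 had positive changes, and Nanog, Utf1 and Klf4 rose 1.33-, 1.35- and 1.27-fold.

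SOX proteins bind DNA through a high mobility group (HMG) box, which enters the minor groove and bends the helix. They are sorted by sequence into groups with letters, such as SOXB, SOXC and SOXF, and members of a group often stand in for each other. Forkhead proteins bind through a winged helix domain, and some, above all the FOXA proteins, can bind sites that are wrapped on a nucleosome. In ES cells most members are low, and they are switched on as cells take up neural, endodermal, mesodermal or vascular fates.

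Of the 18 SOX genes, 15 could be tested, having a probe well above background on all arrays of either group. Sox15 and Sox18 rose, Sox11 fell, and 12 did not pass the threshold of 0.05 on the adjusted p. Of the 36 FOX genes, 23 could be tested: none rose, Foxa3, Foxk2 and Foxo6 fell, and 20 did not pass. The called share was 20% of tested SOX genes and 13.0% of tested FOX genes, and in the same fit 23.3% of all 17758 genes tested were called, 9.87% as raised and 13.4% as lowered. Calls in either family were thus no more frequent than over the whole array. The median log2 change was 0.15 over the SOX genes and -0.03 over the FOX genes, beside -0.04 over all genes. The SOX median was not steady between arrays. Taken against the control mean of each gene, it was 0.11, 0.20 and 0.13 on the BRG1 siRNA arrays and 0.17, -0.16 and -0.03 on the control siRNA arrays, so that the groups overlapped. In bulk RNA such as this, fewer cells that express a gene and less RNA per cell cannot be told apart.

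**Figure D1:**
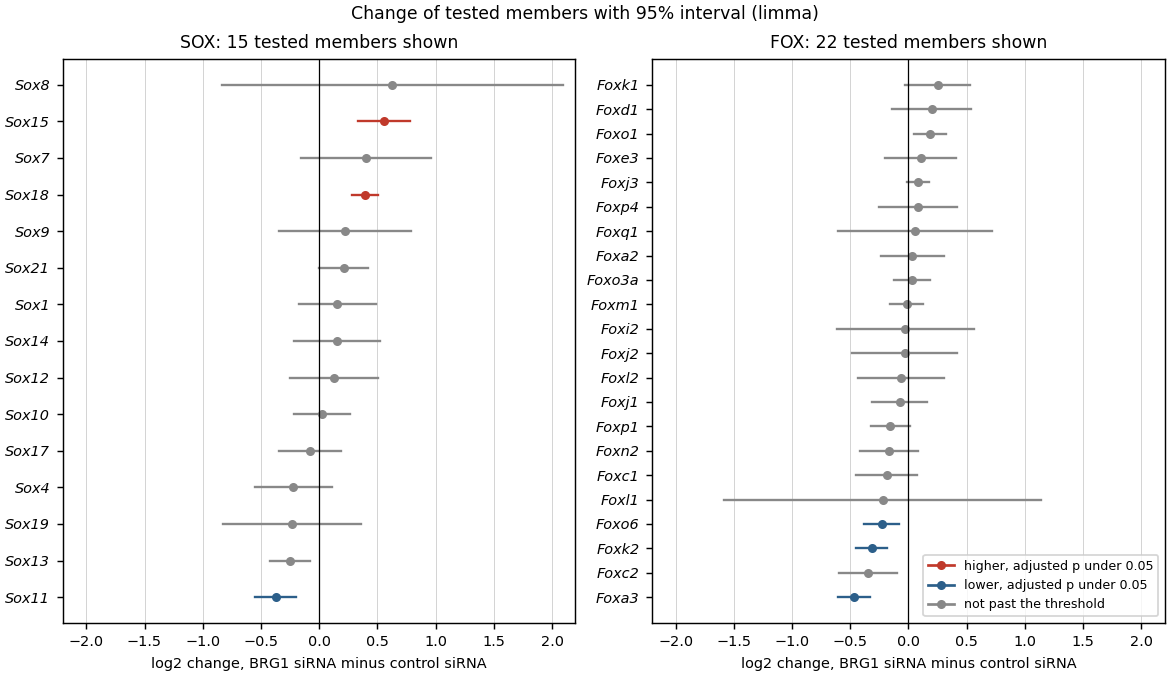
Log2 change (BRG1 siRNA minus control siRNA, horizontal axis) of the 15 tested SOX genes (left) and 22 of the tested FOX genes (right), each as a point with its 95% interval from limma. Sox15 and Sox18 lie to the right of 0 in red, Sox11, Foxa3, Foxk2 and Foxo6 to the left in blue, and the widest intervals belong to Sox8 and Foxl1.

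The largest change past the threshold among the SOX genes was that of Sox15, the lone member of group G. Its HMG box is close to that of SOX2, and in mouse ES cells it can bind DNA together with OCT4. The Sox15 probe (chr11:69738092-69738151, plus strand, mm7) read 70.3, 68.6 and 77.6 on the BRG1 siRNA arrays, against 52.5, 43.6 and 51.3 on the control siRNA arrays. All BRG1 siRNA arrays were above all control arrays. Sox15 rose 1.47-fold (log2 change 0.56 ± 0.09 SE, adjusted p = 0.0112). A fit with a slide term gave 0.52 with an adjusted p of 0.0883, a change that rests on BRG1 replicate 1, as does the 0.52 on slide 1 alone.

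The promoter of Sox15 is shown beside that of Foxk2, one of the genes that fell, because they hold the fewest and the most CG dinucleotides among the called members with a promoter in the RefSeq table. Each window runs from 250 bases before to 50 bases after the start of the gene, 300 bases in GRCm38.p6, with CG in capitals. Sox15 lies at chr11:69654787-69655086, plus strand, and Foxk2 at chr11:121259737-121260036, plus strand.
Sox15: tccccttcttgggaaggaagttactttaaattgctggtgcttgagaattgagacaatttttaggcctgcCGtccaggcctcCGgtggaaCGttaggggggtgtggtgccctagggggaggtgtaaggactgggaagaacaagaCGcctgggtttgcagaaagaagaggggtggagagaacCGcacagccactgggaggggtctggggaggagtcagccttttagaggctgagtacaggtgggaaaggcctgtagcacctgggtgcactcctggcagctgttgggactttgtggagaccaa
Foxk2: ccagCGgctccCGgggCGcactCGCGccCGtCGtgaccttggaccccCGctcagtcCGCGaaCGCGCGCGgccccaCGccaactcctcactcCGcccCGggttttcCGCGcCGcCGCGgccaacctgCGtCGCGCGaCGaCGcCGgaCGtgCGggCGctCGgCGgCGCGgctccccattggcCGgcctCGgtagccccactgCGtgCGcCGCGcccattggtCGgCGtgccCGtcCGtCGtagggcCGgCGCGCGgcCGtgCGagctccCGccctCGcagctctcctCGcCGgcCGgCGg
The Sox15 window holds 5 CG, and 43.6% of the 32851 mouse promoters in the table hold that many or fewer. The Foxk2 window holds 59, and 0.1005% of the promoters hold that many or more. Those of Sox11 (chr12:27342669-27342968, minus strand) and Foxa3 (chr7:19023490-19023789, minus strand) hold 21 and 22. The median was 21 over 45 promoters of the 35 members matched by symbol, against 7 over all promoters in the table. Sox15 thus had fewer CG than the median member promoter, Sox11 and Foxa3 were at or next to it, and Foxk2 had more. Sox18 and Foxo6 had no promoter in the table, so Sox15 is the only raised gene described. A link between CG count and direction was not tested.

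The windows were also searched on both strands for the SOX core AACAAT, the FOX core TGTTTAC, the TCF/LEF core CTTTGAT and the octamer ATTTGCAT, core letters bound by SOX, forkhead and TCF/LEF proteins and by OCT4. None of the 4 was found in the promoters of Sox15, Sox11, Foxa3 or Foxk2. Each was found in 2 of the 45 member promoters, with the SOX core in Sox6 and Foxp1, the FOX core in Sox12 and Foxa1, the TCF/LEF core in Sox6 and Foxa2, and the octamer in Sox1 and Sox12. Over all promoters the shares were 10.7% for the SOX core, 3.65% for the FOX core, 3.73% for the TCF/LEF core and 1.74% for the octamer. A match describes the letters and is not a measured binding site.

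Group F holds Sox7, Sox17 and Sox18, which work in blood and lymph vessels, and of which SOX17 is also needed for definitive endoderm in the mouse. Sox18 (probe at chr2:182170995-182171054, minus strand, mm7) read 28.0, 26.9 and 25.8 on the BRG1 siRNA arrays, against 20.3, 20.8 and 20.3 on the control siRNA arrays. The control arrays were close together and all below the BRG1 siRNA arrays. Sox18 rose 1.31-fold (log2 change 0.39 ± 0.05 SE, adjusted p = 0.00438), the lowest adjusted p of any member. With a slide term the change was 0.45 (adjusted p = 0.0304), which rests on BRG1 replicate 1, as does the 0.45 on slide 1 alone. Sox7 read 4.47, 5.68 and 5.91 on the BRG1 siRNA arrays and 5.56, 3.53 and 3.31 on the control siRNA arrays. Its groups overlapped through control replicate 1, and the change of 0.40 ± 0.23 SE did not pass (adjusted p = 0.252). Without control replicate 1 the change of Sox7 was 0.64 with an adjusted p of 0.0474. Sox7 passed in 4 of 22 alternative settings and not in the other 18. Its change ran down to 0.15 and its adjusted p up to 0.809. Sox17 had a change of -0.08 with a 95% interval from -0.35 to 0.19, so Sox18 was the only one of the group past the threshold, and no difference between the 3 genes was tested.

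Among 10 endothelial genes that lie downstream of SOXF and FOXC factors, 8 were tested, 4 fell and none rose, with a median of -0.25. The called share was 50%, beside 23.3% of all genes. Of those past the threshold, the largest falls were 1.27-fold for Cldn5, a tight junction protein, 1.21-fold for Flt1, a VEGF receptor, and 1.18-fold for Pecam1, an adhesion molecule. Dll4 (1.87-fold lower, adjusted p = 0.250) and Notch1 (1.20-fold lower, 0.0596) did not pass. Esam (1.21-fold higher, adjusted p = 0.0968) and Kdr (1.08-fold higher, 0.589) went the other way and did not pass either. The list's summed relative signal was 257 to 263 on the BRG1 siRNA arrays and 280.5 to 304 on the control siRNA arrays. Here and below, such a sum follows the brightest probes of a list and says little of its dim genes.

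Group C holds Sox4, Sox11 and Sox12, factors of neural and mesenchymal progenitors. Sox11 has 6 probes, and on 5 of them it fell. Its brightest probe (chr12:25176418-25176470, minus strand, mm7), the one used in the gene counts, read 48.3, 53.6 and 54.6 on the BRG1 siRNA arrays, against 72.1, 64.4 and 66.1 on the control siRNA arrays. Every BRG1 siRNA array was below every control array, and Sox11 fell 1.296-fold there (log2 change -0.37 ± 0.07 SE, adjusted p = 0.0179). With a slide term the change was -0.48 (adjusted p = 0.0443), which rests on BRG1 replicate 1, as does the -0.48 on slide 1 alone. The call was lost without BRG1 replicate 2 (adjusted p = 0.0575), without control replicate 2 (0.0522) or 3 (0.0669), without the filter on dim probes (0.0632), with the replicate block (0.0809), and with median scaling (0.0533) and spike-in scaling (-0.18, 0.113), while averaging the probes gave -0.45 with 0.00335.

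The probes of Sox11 lie along 7.41 kb of chromosome 12, and those near the 3′ end had the largest measured changes. From the 5′ end, the probes at 0, 1.36 and 1.57 kb had log2 changes of -0.22, -0.37 and -0.33, with adjusted p of 0.0212, 0.021 and 0.0101 over all probes. The fourth, at 4.09 kb, read 17.7, 12.7 and 10.4 on the BRG1 siRNA arrays and 15.1, 16.3 and 14.1 on the control siRNA arrays, and did not pass (-0.19 ± 0.20 SE, adjusted p = 0.525). At 6.89 kb (chr12:25170888-25170947) the signal was 24.7, 22.9 and 29.6 on the BRG1 siRNA arrays, against 43.6, 40.5 and 48.8 on the control siRNA arrays. This is a 1.73-fold fall (-0.79 ± 0.12 SE, adjusted p = 0.0107). At 7.41 kb (chr12:25170366-25170425) it was 30.1, 33.2 and 41.2 on the BRG1 siRNA arrays, against 61.1, 57.7 and 62.6 on the control siRNA arrays. The fall was 1.75-fold (-0.81 ± 0.12 SE, adjusted p = 0.0104). Within an array, the mean log2 signal of these last 2 probes minus that of the other 4 was 0.06, 0.13 and 0.56 with BRG1 siRNA, against 0.72, 0.69 and 0.89 with control siRNA. The groups did not overlap, with a mean difference of -0.52. An exact two-sided permutation test over arrays gave p = 0.1, the smallest that 3 against 3 arrays allow. The probes were split this way after their values were seen, so neither value is independent support for a difference along the region, and the files do not say which transcripts each probe can bind.

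**Figure D2:**
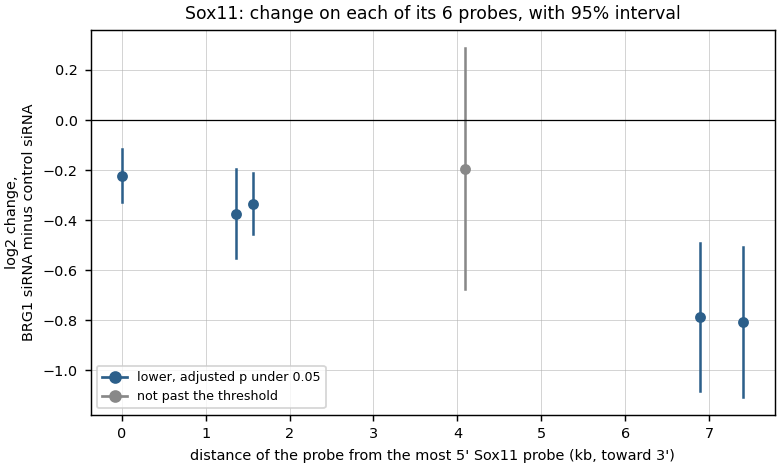
Log2 change (BRG1 siRNA minus control siRNA, vertical axis) of the 6 Sox11 probes against their distance in kb from the most 5′ probe, with 95% intervals. The 3 probes at 0 to 1.57 kb lie between -0.37 and -0.22, and the probes at 6.89 and 7.41 kb at -0.79 and -0.81.

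The most 5′ Sox11 probe (chr12:25177775-25177834) read 11.1, 11.4 and 11.3 with BRG1 siRNA, against 13.4, 12.7 and 13.3 with control siRNA. Of the others in group C, Sox12 read 10.5, 13.4 and 9.78 with BRG1 siRNA and 10.02, 8.99 and 11.7 with control siRNA, with overlapping groups and a change of 0.13 ± 0.15 SE (adjusted p = 0.589). Sox4 read 65.7, 64.7 and 48.8 with BRG1 siRNA and 65.3, 75.6 and 66.9 with control siRNA, and its change of -0.22 ± 0.13 SE did not pass (adjusted p = 0.277). Sox11 was therefore the one gene of group C past the threshold, and its difference from Sox4 and Sox12 was not tested.

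Among the other SOX genes, Sox13 came nearest to the threshold. It belongs to group D, whose proteins lack an activation domain of their own, and it read 219, 185 and 206 with BRG1 siRNA against 245, 238 and 242 with control siRNA. The 3 BRG1 siRNA arrays were the lowest, and the change was -0.25 ± 0.07 SE with an adjusted p of 0.0503. Without BRG1 replicate 1 it was -0.31 with an adjusted p of 0.0468. Sox13 passed in 6 of 22 alternative settings and not in the other 16, with an adjusted p of up to 0.735. Sox21, a group B2 factor that opposes SOXB1 in neural progenitors, read 13.0, 13.3 and 13.7 with BRG1 siRNA, against 13.0, 11.2 and 10.5 with control siRNA. Its groups only just stood apart (13.03 on the lowest BRG1 siRNA array against 12.998 on the highest control array), and the change was 0.21 ± 0.08 SE (adjusted p = 0.131), or 0.30 with an adjusted p of 0.0328 without control replicate 1. The other tested probes of Sox21 had changes of -0.03 (adjusted p = 0.939) and 0.06 (0.850), and normexp with the 75th percentile gave 0.04 (0.828) for the gene. Sox1, a marker of neural progenitors, had a change of 0.16 with an interval from -0.17 to 0.49, and Sox14 one of 0.15 from -0.22 to 0.52.

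In group E, which acts in neural crest, glia and cartilage, Sox10 had a change of 0.03 with an interval from -0.22 to 0.27. Sox9 had a change of 0.22 with an interval from -0.35 to 0.79. Its second tested probe had the opposite sign (-0.29 ± 0.23 SE, adjusted p = 0.427), and Sox9 is left without a direction. Sox8 read 2.01, 10.4 and 4.88 with BRG1 siRNA and 3.33, 3.44 and 2.41 with control siRNA. BRG1 replicate 2 was the highest, the groups overlapped, and the interval ran from -0.83 to 2.09, too wide to set a direction. Of 11 neural crest and glial genes downstream of group E, 8 were tested, with a list median of -0.19. Erbb3, a neuregulin receptor, rose 1.26-fold and Mitf, the master regulator of pigment cells, fell 1.45-fold. The called share was 25%, beside 23.3% of all genes. Of 8 cartilage genes downstream of SOX9, 6 were tested and none passed (median -0.14). Sox19, a name the file keeps without a position, had a change of -0.24 with an interval from -0.83 to 0.36.

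**Figure D3:**
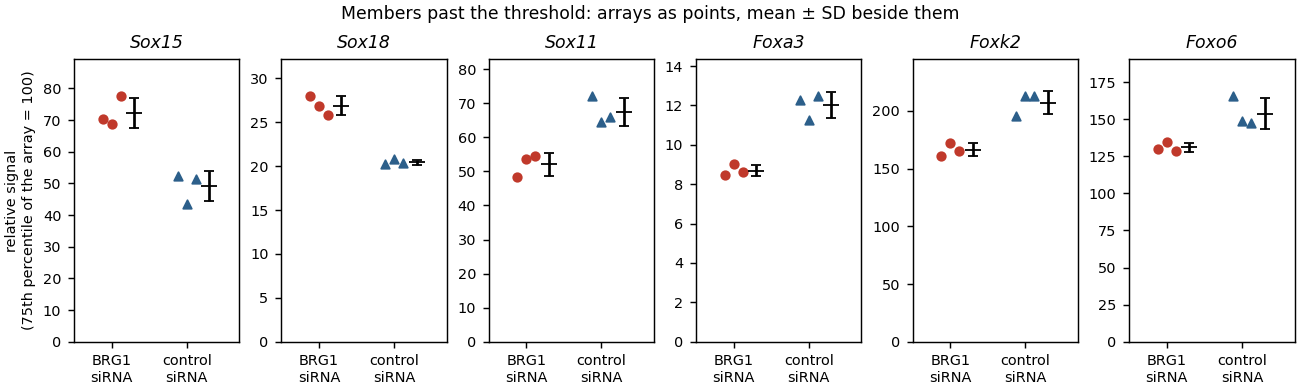
Relative signal (75th percentile of the array = 100, axes from 0) of the 6 members past the threshold, with BRG1 siRNA arrays as red circles and control siRNA arrays as blue triangles, and the mean ± SD (n = 3 arrays) beside them. In all 6 panels the groups do not overlap: Sox15 and Sox18 are higher and Sox11, Foxa3, Foxk2 and Foxo6 lower with BRG1 siRNA.

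Among the FOX genes, Foxa3 had the largest change past the threshold. The FOXA factors open chromatin at endodermal genes, and FOXA3 keeps this role in liver and gut. The Foxa3 probe (chr7:16696078-16696137, minus strand, mm7) read 8.46, 9.02 and 8.60 on the BRG1 siRNA arrays, against 12.3, 11.3 and 12.5 on the control siRNA arrays. All BRG1 siRNA arrays were below all control arrays, at a signal near the background end of the range. Foxa3 fell 1.38-fold (log2 change -0.47 ± 0.06 SE, adjusted p = 0.005). The change was -0.50 with a slide term (adjusted p = 0.0418) and -0.50 on slide 1 alone, both resting on BRG1 replicate 1. With spike-in scaling it was -0.27 (adjusted p = 0.0708). Foxa2, which acts with SOX17 in definitive endoderm, had a change of 0.03 with an interval from -0.24 to 0.30, and Foxa1 was too dim to test. Of 12 endoderm genes that work with SOX17 and FOXA2, both included, 10 were tested and 1 fell: Eomes, a T-box factor of early mesendoderm, by 1.58-fold (list median -0.04). Of 11 primitive endoderm genes, which include Sox17, Sox7 and Foxq1, 10 were tested and 2 fell (median 0.04). These were the endocytic adaptor Dab2, 1.49-fold, and the laminin chain Lama1, 1.46-fold. The called shares of these endoderm lists were 10% and 20%, beside 23.3% of all genes. The summed signals of the primitive endoderm list overlapped, at 1603 to 1987 with BRG1 siRNA and 1513 to 1993 with control siRNA. Sparc alone gave 1165 to 1454 and 1106.5 to 1382 of them, so the sums do not bear on Dab2 or Lama1.

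Foxk2 and its partner Foxk1 repress autophagy genes in fed cells and raise glycolytic genes. Foxk2 (chr11:121418585-121418644, plus strand, mm7) read 161, 173 and 166 on the BRG1 siRNA arrays, against 196, 213 and 213 on the control siRNA arrays. The control arrays were all higher, and Foxk2 fell 1.24-fold (log2 change -0.32 ± 0.05 SE, adjusted p = 0.013). Of its other 3 probes, 1 fell as well (-0.24, adjusted p = 0.0472), 1 did not pass (-0.10, adjusted p = 0.223) and 1 was not above background. Its call did not hold with a slide term (-0.36, adjusted p = 0.0605), which rests on BRG1 replicate 1, as does the -0.36 on slide 1 alone. It was also lost without control replicate 2 (-0.29, adjusted p = 0.0604) or 3 (-0.30, 0.0649) and without the filter on dim probes (-0.32, 0.0532). Median scaling (-0.26, 0.209) and spike-in scaling (-0.12, 0.430) lost it too. Foxk1 read 34.4, 37.7 and 41.5 with BRG1 siRNA and 35.8, 28.0 and 31.8 with control siRNA, with a change of 0.25 ± 0.11 SE that did not pass (adjusted p = 0.165).

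The FOXO factors are held out of the nucleus by insulin and AKT signalling, apart from FOXO6, a brain-enriched member that stays largely nuclear. Foxo6 (chr4:119707061-119707120, minus strand, mm7) read 129.8, 134 and 129 on the BRG1 siRNA arrays, against 166, 148 and 147 on the control siRNA arrays. The groups did not overlap, control replicate 1 being the highest, and Foxo6 fell 1.17-fold (log2 change -0.23 ± 0.06 SE, adjusted p = 0.0429). This was the weakest of the 6 calls. It was lost in 12 of 22 alternative settings, among them a fit with a slide term (-0.24, adjusted p = 0.162) and each array left out in turn (-0.26 to -0.18, adjusted p from 0.0759 to 0.116). Foxo1, needed for pluripotency in mouse and human ES cells, read 441, 415 and 396 with BRG1 siRNA, against 366, 377 and 357 with control siRNA. The groups did not overlap, but the change of 0.19 ± 0.05 SE did not pass (adjusted p = 0.0618), and a second probe had 0.06 (adjusted p = 0.375). Without BRG1 replicate 3 the change was 0.22 with an adjusted p of 0.0403. Foxo1 passed in 5 of 22 alternative settings and not in the other 17. Foxo3a, now Foxo3, had 0.03 with an interval from -0.12 to 0.19.

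Of 22 regulators and targets of FOXO, 20 were tested, 3 rose and 4 fell, with a median of 0.01. The called share was 35%, beside 23.3% of all genes. The cell cycle inhibitor Cdkn1b fell 1.46-fold and the repressor Bcl6 1.47-fold, both known FOXO targets, while the pro-apoptotic Bcl2l11, another target, rose 1.22-fold. Sesn1 rose 1.18-fold and Sesn3, also of the sestrin family of stress proteins, fell 1.22-fold, so the known targets did not move in a single direction.

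Foxm1 drives the genes of mitosis. It read 189, 193 and 213 with BRG1 siRNA and 203, 197 and 199 with control siRNA, and its change of -0.01 had an interval from -0.15 to 0.13 (adjusted p = 0.894). Of 15 mitotic genes known as FOXM1 targets, all 15 were tested, 6 fell and none rose, with a median of -0.15 beside the -0.04 of all genes. The called share was 40%, beside 23.3% of all genes. These values are from the scaling on the 75th percentile alone, and spike-in scaling moved the median of all genes to 0.16. Birc5, or survivin, read 5978, 6586 and 6633 with BRG1 siRNA against 8857, 9150.4 and 8941 with control siRNA, a 1.41-fold fall (adjusted p = 0.00404). The centromere histone Cenpa fell 1.36-fold and the kinase Aurka 1.19-fold. Thus 6 of the targets were lower while the interval of Foxm1 spanned 0, and the summed signal of the list was 38394 to 40304 with BRG1 siRNA and 44908 to 45695 with control siRNA.

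Foxp1 is spliced in ES cells into a form that favours pluripotency genes, and its probes differed from each other. The brightest (chr6:99015248-99015307) read 401, 409 and 456 with BRG1 siRNA and 481, 447 and 480.4 with control siRNA, with a change of -0.15 ± 0.07 SE (adjusted p = 0.152), or -0.21 with 0.0491 without BRG1 replicate 3. A second, whose position spans chr6:99023463-99027800, read 208, 199.6 and 152 with BRG1 siRNA against 143, 156 and 128 with control siRNA, a change of 0.38 ± 0.14 SE (adjusted p = 0.116). The last probe had 0.13 (adjusted p = 0.492). None passed in the main fits with all arrays, and the gene passed in 2 of 22 alternative settings. Its change turned positive when the probes were averaged (0.12) or arrays were scaled on spike-in spots (0.04), and Foxp1 is left without a direction. Foxj3 read 414, 413 and 399 with BRG1 siRNA, against 382, 384 and 391.97 with control siRNA, and the small change of 0.08 ± 0.04 SE did not pass (adjusted p = 0.181). Foxq1 read 264, 350.5 and 365 with BRG1 siRNA and 414, 215 and 336 with control siRNA. The lowest and the highest value were both on control arrays, and the interval ran from -0.60 to 0.72.

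Foxc2, a factor of lymphatic vessels and mesenchyme, read 4.08, 3.68 and 4.19 with BRG1 siRNA, where 2 of 3 arrays were above background, against 5.03, 4.52 and 5.70 with control siRNA. The groups did not overlap, and the change of -0.35 ± 0.10 SE did not pass (adjusted p = 0.0581). Foxc2 lies in a cluster on chromosome 8, 32.0 kb from Foxf1a (now Foxf1) and 9.90 kb from Foxl1 by probe starts in mm7. Foxf1a was too dim to test, and Foxl1 read 2.63, 8.39 and 8.75 with BRG1 siRNA and 10.3, 4.78 and 6.24 with control siRNA, with an interval from -1.59 to 1.14. In the cluster on chromosome 13, Foxc1 had a change of -0.19 (interval -0.45 to 0.07), Foxf2, 178 kb away, was too dim, and Foxq1, 71.3 kb beyond Foxf2, is described above. Neither cluster held a member past the threshold.

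The remaining tested FOX genes include factors of motile cilia (Foxj1), the ovary (Foxl2) and the lens (Foxe3). Their changes were -0.08, -0.07 and 0.11, and none passed. Foxd1, Foxi2, Foxj2, Foxn2 and Foxp4 had changes of 0.20, -0.03, -0.03, -0.16 and 0.08 and did not pass either. A second tested probe of Foxp4 had 0.18 ± 0.05 SE (adjusted p = 0.0543 over all probes), with groups that did not overlap. Second tested probes of Foxd1 (-0.04, adjusted p = 0.791) and Foxn2 (0.05, 0.856) had the opposite sign to the first. Over all 20 tested FOX genes that did not pass, changes ran from -0.35 to 0.25, and over the 12 such SOX genes from -0.25 to 0.63. Over all tested members, called ones included, the 95% interval lay within 0.5 of 0 on both sides for 16 of 23 FOX genes and 5 of 15 SOX genes. A change of that size was thus outside the interval for most tested FOX genes and for fewer of the SOX genes. Groups without overlap were seen for 5 of 15 SOX genes and 6 of 23 FOX genes, beside 44% of all genes tested.

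**Figure D4:**
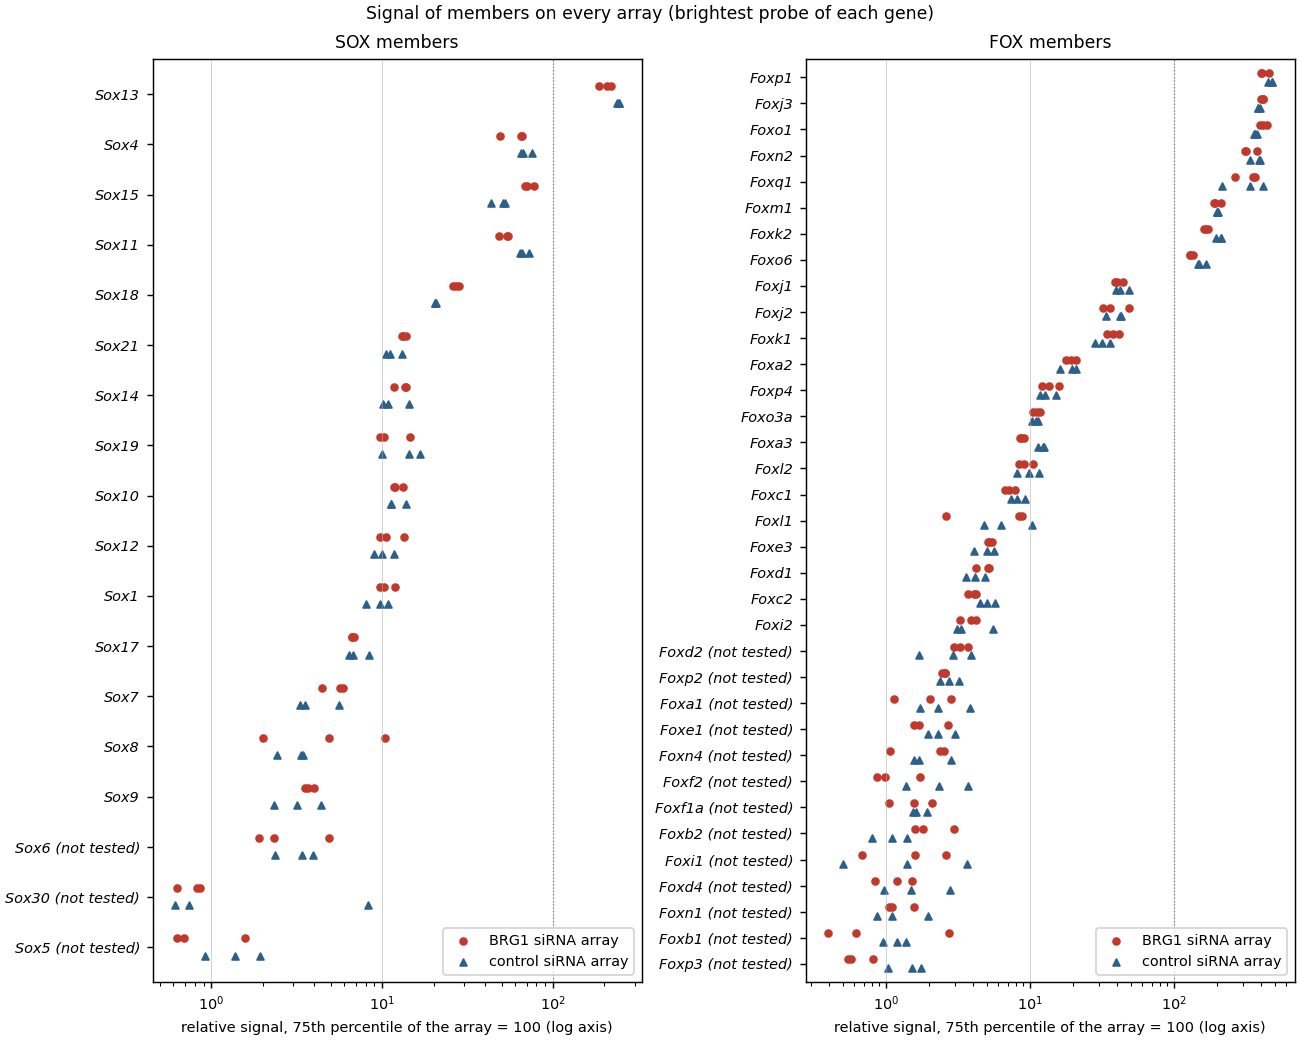
Relative signal (75th percentile of the array = 100, log axis, dotted line at 100) of the 18 SOX genes (left) and 35 of the FOX genes (right) on each of the 3 BRG1 siRNA arrays (red circles) and 3 control siRNA arrays (blue triangles), brightest probe of each gene. Sox13 and 8 FOX genes lie above 100, and the 16 genes marked as not tested lie at the low end apart from Sox30 on 1 control array.

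The plot of signals by array shows how dim most of the families were. The mean relative signal was over 100 for 1 SOX gene and 8 FOX genes, and under 20 for 10 of the tested SOX genes and 12 of the tested FOX genes. Probes differ in how strongly they bind, so these signals do not rank the genes by their RNA. The 3 SOX genes that could not be tested were Sox5 and Sox6 of group D and Sox30, a testis gene. The 13 FOX genes were Foxa1, Foxb1, Foxb2, Foxd2, Foxd4, Foxe1, Foxf1a, Foxf2, Foxi1, Foxn1, Foxn4, Foxp2 and Foxp3, among them factors of the thymus (Foxn1), regulatory T cells (Foxp3) and the thyroid (Foxe1). Their signals ran from 0.396 to 3.90, and none of these genes was above background on every array of a group. Sox30 read 0.626, 0.825 and 0.863 with BRG1 siRNA, against 8.25, 0.613 and 0.744 with control siRNA, a signal on control replicate 1 alone. That array also had the highest share of spots above background, 75.3%, and gave the highest value for 2 of the 3 untested SOX genes and 9 of the 13 untested FOX genes.

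By probe, 23 SOX probes were tested, of which 2 rose and 5 fell, the 5 being those of Sox11. Of 34 FOX probes tested none rose and 4 fell, 2 of them for Foxk2. Over all 26257 probes tested 19.6% were called. No member had a call on 1 probe and a change in the opposite direction on another probe past the threshold.

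Some markers of other cells also passed the threshold. Of 14 fibroblast markers, 13 were tested, all but Lum, 6 fell and 2 rose, a called share of 61.5% beside 23.3% of all genes. Their summed signal was 1409 to 1562 on the BRG1 siRNA arrays against 2139 to 2382 on the control siRNA arrays. The largest falls were of S100a4 (2.12-fold), Fn1 (1.76-fold) and Thy1 (1.73-fold), and Mgp rose 2.25-fold and Lox 1.68-fold. Of 12 neural progenitor markers, 10 were tested, none rose and 2 fell (median -0.23). Their called share of 20% was below the 23.3% of all genes. These were the Notch target Hes5, 1.82-fold, and the homeobox gene Otx2, 1.79-fold. The list summed to 1275 to 1341 with BRG1 siRNA and 1376 to 1392 with control siRNA, most of it from Tubb3 and Nes. Of the ES cell markers, Nanog, Utf1 and Klf4 rose 1.33-, 1.35- and 1.27-fold, and Pou5f1 fell 1.253-fold, a called share of 50%. The list summed to 44501 to 46386 with BRG1 siRNA and 43913 to 44535 with control siRNA, most of it from Dppa5a and Zfp42. The part of these markers in the changes of the SOX and FOX genes was not tested.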

How the data were processed

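The deposited files give a linear intensity per spot of single-colour arrays. Per the file headers, scans were read with Agilent Feature Extraction 9.5.3.1 (9.5 per the submitters' processing notes), whose processed signal is background-subtracted but not scaled between arrays. The deposited value table was identical to it. Probe positions are in mm7, per the file headers.

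Control spots and spots marked as outliers were left out. Log2 signal minus the 75th percentile of each array was fitted with limma 3.58.1 (lmFit and eBayes, two-sided) in R 4.3.3, and p-values were adjusted by Benjamini-Hochberg over all 17758 genes tested, with a threshold of 0.05. Each gene was its brightest probe, tested where all arrays of either group had it well above background; a second fit took all 26257 such probes. The number of arrays limits the precision. Saturated spots, 0 to 2 per array, were kept. The fit was tested on simulated data.

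The members, the gene lists and the tests were chosen with earlier results of these data known. Members past the threshold, up to 3 per family next to it and the 3 brightest per family are given with their values; the rest, given by interval or count, include some named after their values were seen. Symbols and promoters came from RefSeq tables of GRCm38.p6; no gene annotation in mm7 was used. The counts include 1 FOX gene whose values are not reported here. The alternatives were other background corrections, normalizations, scalings (spike-in spots among them), filters, probe summaries and blocks, array weights, and each array left out.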

Additional observations from a re-analysis of the deposited data

How the results depend on the processing

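All 6 called members kept their direction in every alternative run, and the count of called genes changed more than their signs did. Their groups did not overlap, so leaving out 1 array could not turn a sign. The run on the deposited values used the same numbers as the main fit. The SOX count of 3 became 5 with quantile normalization, with normexp and quantile normalization, with spike-in scaling and with array weights, 0 on slide 1 alone, and 2 to 5 when 1 array was left out. The FOX count of 3 became 1 with median scaling, without the filter on dim probes and with slide as a block, 0 on slide 1 alone, 6 with array weights, and 1 to 4 when 1 array was left out. The SOX median of 0.15 became 0.079 with normexp and the 75th percentile, 0.090 with normexp and quantile normalization, 0.20 with median scaling, 0.35 with spike-in scaling, 0.076 without the filter, 0.080 on slide 1 alone and 0.079 with the mean over probes, and ran from 0.014 to 0.26 when 1 array was left out. The FOX median of -0.03 became 0.17 with spike-in scaling and ran from -0.14 to 0.070 when 1 array was left out. Spike-in scaling moved the median of all genes to 0.16, and there 5 SOX and 2 FOX genes were raised and none lowered; Foxp1 changed sign to 0.044, and to 0.12 with the mean over probes. The cause of these shifts was not tested. The gene lists are given with the scaling on the 75th percentile alone.

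Over all genes the count of 4139 became 1734 with median scaling, 1740 without the filter, 1392 with slide as a block, 59 on slide 1 alone, 6820 with array weights and 1641 to 4413 when 1 array was left out. Of the member probes, 11 were called, against 5 with median scaling, 3 with slide as a block, 0 on slide 1 alone and 3 to 12 when 1 array was left out. Smarca4 kept its sign throughout, at -0.54 (adjusted p = 0.0724) on slide 1 alone and -0.64 to -0.55 when 1 array was left out. Slide 1 holds only 1 BRG1 siRNA array, assumed there to vary like the controls.

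The replicate numbers did not pair the arrays: deviations of same-numbered arrays from their group means correlated at -0.31, 0.11 and -0.02. With the replicate block, 1945 of all genes and 6 member probes were called, 2 SOX genes were raised and none lowered, and 3 FOX genes were lowered, of which 2 had been called without the block. Most members had a dim signal, which limits what a small change could show.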
